A study of Mus musculus with 6 samples.

Results

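Genes of the mitochondrial carrier family (Slc25a) and of the numbered subunits of the mitochondrial protein import machinery (Timm, Tomm) were taken by symbol from the 6 deposited expression tables. The rule, a symbol that starts with Slc25a, Timm or Tomm followed by a digit, gave 63 genes of 13405 listed, 41 carriers and 22 import genes. Of these, 60 reached a mean normalized read count of 10 and entered the tests, 39 carriers and 21 import genes; Tomm6, Slc25a23 and Slc25a18 did not reach that level. The libraries came from 4T1 cells grown in vitro, an established mammary carcinoma line from a BALB/c mouse. 3 libraries are from cells with a vector control and 3 from ATM KO cells, labelled as a knockout of Atm, the gene of a kinase that responds to DNA double-strand breaks; no drug, dose or time is given for either group. The series title links loss of ATM to leakage of mitochondrial DNA, and the comparison asks here whether genes that move metabolites and proteins across the mitochondrial membranes differed between the groups. Whether the 3 libraries of a group come from separate cultures, clones or days is not stated, nor how many clones the knockout represents, so p-values reflect only how far these libraries spread, and that spread may be technical.

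Mitochondria make nearly none of their own proteins. Precursors made in the cytosol enter through the TOM complex of the outer membrane, whose pore is Tomm40 and whose receptors include Tomm20, Tomm22 and Tomm70. The TIM23 complex then passes proteins with a presequence into the matrix, and the TIM22 complex inserts carrier proteins into the inner membrane after small TIM chaperones have guided them across the intermembrane space. The carriers are thus themselves substrates of the TIM22 route. They exchange nucleotides, phosphate, organic acids, amino acids, cofactors and iron between cytosol and matrix, and the ADP/ATP carriers and the phosphate carrier supply the ATP synthase. In tumour cells they also export citrate and aspartate for lipid and nucleotide synthesis.

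The listed genes held 22494919 to 32341508 reads in each library. Values are normalized read counts, given in the order of libraries 1, 2 and 3 of each group; log2 differences subtract the mean log2(value + 1) of the vector controls from that of the knockout libraries, come with their SE, and understate changes of low genes. Levels of different members are compared only per kb of exon. Vector control 1 stood apart. Across the 12149 tested genes its log2 values correlated at 0.914 with vector control 2 and at 0.965 with ATM KO 2. Vector controls 2 and 3 correlated at 0.997. Atm itself stood at 1978, 1613 and 1519 in control and 1959, 2219.8 and 1591 in the knockout, so its mRNA does not check the labels. Of 8 epithelial markers of 4T1 cells 7 were listed, with a summed value of 89239 to 125780 in control and 113330 to 157190 in ATM KO libraries. Of 6 immune markers Cd68 alone was listed (301 to 1080.1 in control and 227 to 806 in ATM KO), of 6 fibroblast markers 3 (Pdgfra, Col1a1 and Col1a2, summed 146 to 547 and 344 to 754), and of 5 endothelial markers Cdh5 alone (2.10 to 11.7 and 0 to 6.84). In bulk RNA, fewer cells of a type and less RNA per cell cannot be told apart.

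No carrier or import gene passed a test between the groups with all 6 libraries. Limma called 0 of the 60 tested members, and 0 of 12149 genes (0%), at an adjusted p under 0.05. EdgeR on the recovered reads also called 0 members and 0% of genes, and DESeq2 called 0 members beside 84 genes (0.691%). At an unadjusted p under 0.05 there were 2 members by limma (4.16% of all genes), 2 by edgeR (4.3%) and 3 by DESeq2 (5.9%). The smallest adjusted p of a member was 0.999 by limma and 0.316 by DESeq2, both for Slc25a48. The median log2 difference of the 60 members was -0.05, with 27 positive and 33 negative, beside -0.01 over all tested genes; carriers had a median of -0.00 and import genes of -0.07. These medians turned sign with the libraries used. Without vector control 1 the median of the members was 0.17, with 41 positive and 19 negative, and without ATM KO 3 it was 0.11, whereas it was -0.17 without ATM KO 2. Of the 60 members, 22 turned sign without vector control 1, 18 without ATM KO 3 and 34 without at least 1 of the 6 libraries.

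**Figure D1:**
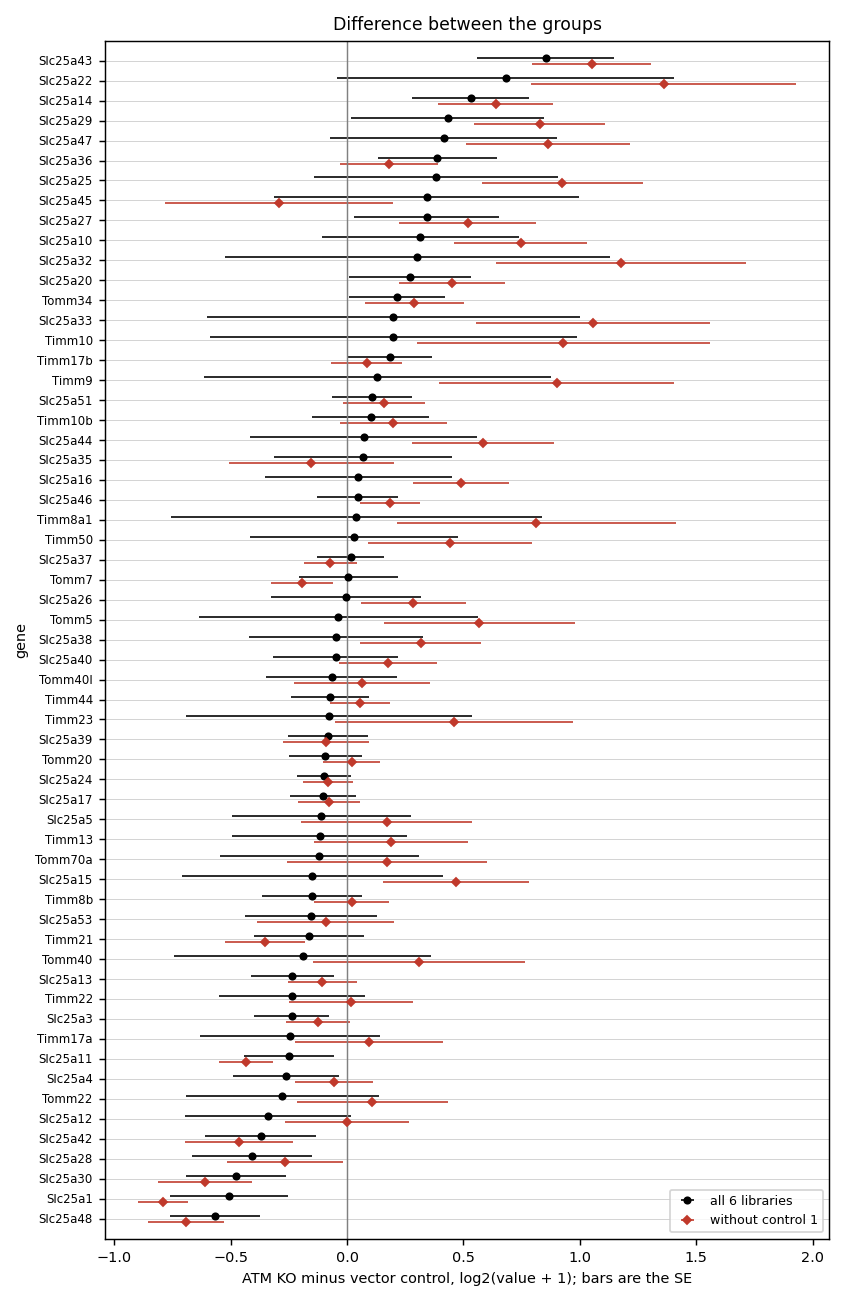
Log2 difference of the tested carriers and import genes except 1 not reported singly, on the log2(value + 1) scale (knockout minus control), with all 6 libraries (with its SE) and without vector control 1. With all 6 libraries the values lie between -0.57 for Slc25a48 and 0.85 for Slc25a43, and 22 of all 60 tested members change sign when vector control 1 is left out.

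The groups did not overlap for 3 members, all of them carriers. In 1 member all knockout libraries stood above all controls (5.7% of all tested genes) and in 2 they stood below (5.48%). The shares of the members, 1.67% and 3.33%, were below those backgrounds. The counts moved with the libraries used, to 16 higher and 7 lower of the 60 members without vector control 1. The share that was higher lay above that of all tested genes (19.6%), and the share that was lower lay below it (21.8%). The counts were 4 and 7 without ATM KO 2, and leaving out any other library gave 1 to 3 higher and 3 to 5 lower. Groups with fewer libraries separate more easily in any gene. Apart from vector control 1, the share over all genes with a library left out was not computed, so those counts show no change particular to the members.

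Slc25a43, a carrier whose substrate is not established (ENSMUSG00000037636, chromosome X, 36743659 to 36777202, plus strand, GRCm38), was the 1 that was higher. Its values were 157, 98.7 and 109 in control and 192, 271 and 195 in the knockout. The highest control, vector control 1, stayed below the lowest knockout, ATM KO 1, and ATM KO 2 stood above all others. The group means were 122 ± 30.9 and 219 ± 44.8 (SD, n = 3 each), a log2 difference of 0.85 (SE 0.29) with a 95% interval of 0.14 to 1.56; its adjusted p was 0.999 by limma and 0.393 by DESeq2.

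Slc25a48, a carrier linked to choline import into the matrix (ENSMUSG00000021509, chromosome 13, 56438355 to 56474239, plus strand, GRCm38), was lower. It stood at 812, 1036 and 1063 in control and 702, 573 and 682 in the knockout. All 3 knockout libraries lay below vector control 1, the lowest control. The means were 970.3 ± 138 and 652 ± 69.3 (SD, n = 3 each), a log2 difference of -0.57 (SE 0.19) with a 95% interval of -1.03 to -0.10. Slc25a42, which carries coenzyme A into the matrix (ENSMUSG00000002346, chromosome 8, 70184340 to 70212305, minus strand, GRCm38), was at 241, 291 and 295 in control and 236, 172 and 235 in the knockout, a log2 difference of -0.37 (SE 0.24). Here the separation was narrow, with ATM KO 1 just under vector control 1, and with upper quartile factors its groups overlapped, which left 1 carrier lower.

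Slc25a1, the citrate carrier that exports citrate for fatty acid and cholesterol synthesis (ENSMUSG00000003528, chromosome 16, 17925223 to 17928219, minus strand, GRCm38), had a single control library apart from the other controls. Its values were 2988, 5385 and 5356 in control and 3080.0, 3085 and 3157 in the knockout. The knockout libraries were nearly level, vector controls 2 and 3 stood far above them, and vector control 1 lay just below them, so the groups overlapped. The log2 difference was -0.51 (SE 0.25) over all 6 libraries and -0.79 without vector control 1.

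Because vector control 1 stood apart, the tests were repeated without it, the DESeq2 and edgeR runs as a choice made after the data were seen. DESeq2 then called 544 genes (4.48%) and 3 members. These were Slc25a1, with a log2 difference of -0.79 and an adjusted p of 8.70e-07, Slc25a48 with -0.68 and 0.0132, and Slc25a43 with 1.08 and 0.0313. Limma called 0 genes (0%) and 0 members without that library, with 9 members (15%) at an unadjusted p under 0.05 beside 14.6% of all genes, and its smallest adjusted p for a member was 0.165, for Slc25a1. EdgeR called 0 genes (0%), with a smallest adjusted p of 0.199 for a member. By edgeR 12 of the 60 members had an unadjusted p under 0.05, beside 1805 of 12149 genes. The 2 remaining controls agree closely, with a median absolute log2 difference of 0.04 over the members, and are the only controls in these fits. Without vector control 1 the groups did not overlap for 16 of the 60 members with ATM KO higher, a larger share than the 19.6% of all genes. They did not overlap for 7 of the 60 with ATM KO lower, a smaller share than the 21.8% of all genes. Whether these shares differ from those of all genes was not tested.

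**Figure D2:**
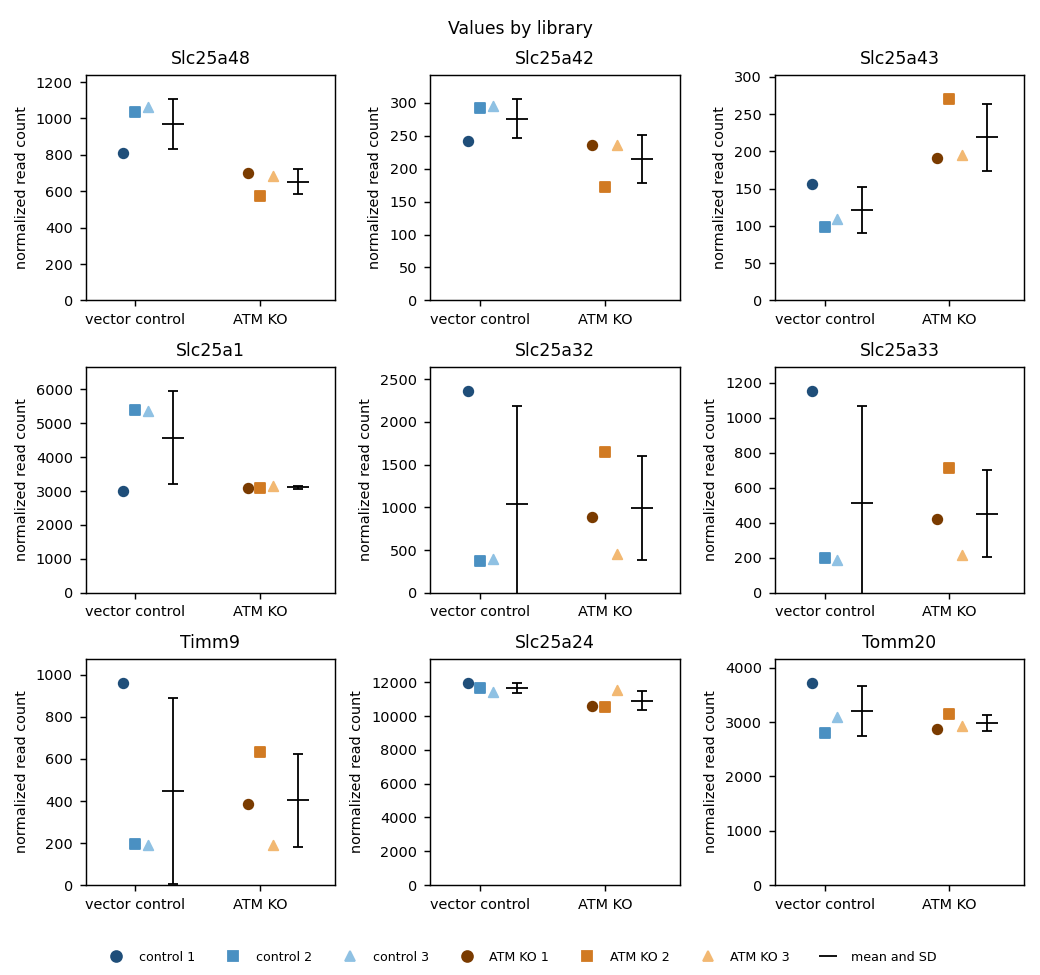
Normalized read counts of 9 members in each library, with the mean and SD of each group; lower SD bars that reach below 0 end at the axis. The groups of Slc25a48, Slc25a42 and Slc25a43 do not overlap, Slc25a1 is low in vector control 1, Slc25a32, Slc25a33 and Timm9 are high in vector control 1 and ATM KO 2, and Slc25a24 and Tomm20 vary little.

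The RefSeq table of promoters (GRCm38.p6) held 51 of the 63 members. The 250 bases upstream of the annotated start are printed 5′ to 3′ for the 3 members that DESeq2 called without vector control 1, so that what stands upstream of them can be read beside their values; capitals mark the E-box CACGTG, and lower case is all other sequence. The windows are chr13:56438105-56438354 (plus strand) for Slc25a48, chrX:36743382-36743631 (plus strand) for Slc25a43 and chr16:17928220-17928469 (minus strand) for Slc25a1.
Slc25a48: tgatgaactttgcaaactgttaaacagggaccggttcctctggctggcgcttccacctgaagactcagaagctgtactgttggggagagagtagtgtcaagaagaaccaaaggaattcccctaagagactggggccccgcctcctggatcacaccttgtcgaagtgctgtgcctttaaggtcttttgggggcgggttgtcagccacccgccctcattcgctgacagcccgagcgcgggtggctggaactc
Slc25a43: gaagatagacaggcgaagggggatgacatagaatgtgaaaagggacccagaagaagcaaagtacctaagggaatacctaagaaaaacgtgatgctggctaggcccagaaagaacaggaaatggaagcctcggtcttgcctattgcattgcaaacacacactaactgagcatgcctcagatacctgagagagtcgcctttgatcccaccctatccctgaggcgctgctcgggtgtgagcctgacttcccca
Slc25a1: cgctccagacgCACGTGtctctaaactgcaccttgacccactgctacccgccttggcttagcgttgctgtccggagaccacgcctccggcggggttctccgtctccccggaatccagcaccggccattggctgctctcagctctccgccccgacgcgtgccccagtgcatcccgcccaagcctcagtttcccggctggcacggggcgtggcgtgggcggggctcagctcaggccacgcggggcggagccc

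The sequence upstream of Slc25a1 holds an E-box whose first base lies 239 bases before the start, and 70% of its bases are G or C, against 56.4% for Slc25a48 and 50.8% for Slc25a43. 3 motifs were searched on both strands over these windows: the palindromic NRF1 motif, CCGGAAGT, bound by ETS factors such as GABP, and CACGTG, the E-box bound by MYC and related factors; none of them contains another. The E-box was in 8 of 51 member promoters (15.7%) and in 6.02% of the 32851 promoters in the table. The ETS motif was in 3 (5.88%, against 2.88%), and the NRF1 motif in 0 (0.782% of all). The promoters in the table outnumber the 13405 listed genes and were not matched to the members for expression or base content. Whether the shares differ beyond that was not tested. Such matches describe letters in a window and not bound sites.

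The ADP/ATP carriers were the most abundant members per kb. Slc25a4 (ANT1) had a mean of 5578 normalized reads per kb of exon, Slc25a5 (ANT2) 3912 and the phosphate carrier Slc25a3 2834, on a scale on which the lowest tested member, Slc25a35, had 12.6. All 3 were highest in vector control 1 and lowest in ATM KO 3. Slc25a4 stood at 18793, 12138 and 12262 in control and 11639, 13952 and 9959 in the knockout, a log2 difference of -0.26 (SE 0.23). Slc25a5 stood at 9369.6, 5259 and 5208 in control and 6399.5, 8752 and 3645 in the knockout, with ATM KO 2 close to vector control 1; 2 processed pseudogenes nearly identical to it make its count uncertain. Slc25a3 was the steadier, at 19764, 15449.9 and 15895 in control and 14795, 15877 and 12594 in the knockout, a log2 difference of -0.24 (SE 0.16). The groups overlapped for each of these genes.

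The calcium-regulated ATP-Mg/phosphate carriers differed in how steady they were. Slc25a24, the third most abundant member per kb (3289), stood at 11943, 11650.0 and 11407 in control and 10607, 10547 and 11549 in the knockout. Its highest library was 1.13-fold its lowest, the narrowest range of the 60 tested members, and its log2 difference was -0.10 (SE 0.12) with a 95% interval of -0.38 to 0.18. Slc25a25 was at 965, 329.9 and 294 in control and 577, 882 and 408 in the knockout, high in vector control 1 and ATM KO 2. Slc25a23 was near the floor, at 1.95, 4.84 and 5.25 in control and 13.7, 7.43 and 5.12 in the knockout, and was not tested.

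Among the 4 tested di- and tricarboxylate carriers, 3 (Slc25a1, Slc25a11 and Slc25a35) were lowest in vector control 1. Slc25a11, the oxoglutarate carrier of the malate-aspartate shuttle, stood at 2001, 2955 and 2915 in control and 2157, 2261 and 2103 in the knockout, a log2 difference of -0.25 (SE 0.19). Vector control 1 lay below all 3 knockout libraries, and without it the difference was -0.43, with an adjusted p of 0.0590 by DESeq2. Slc25a10, the dicarboxylate carrier that exchanges malate and succinate for phosphate, went the other way between libraries, at 2226, 916 and 897 in control and 1596, 2049 and 1078 in the knockout. Slc25a35, a relative of unassigned substrate, stood at 32.1, 50.3 and 52.5 in control and 47.9, 34.0 and 60.1 in the knockout, and 31.3% of its exon length overlaps Rangrf on the other strand.

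The amino acid, glutathione and carnitine carriers were the largest role group, with 13 tested members, 6 positive and 7 negative. Per kb the highest was Slc25a39, a glutathione importer (1911), which stood at 5334, 5413 and 5414 in control and 5759, 5602 and 4077 in the knockout; only ATM KO 3 stood apart, below the rest. Its relative Slc25a40 was at 961, 615 and 594 in control and 744, 782 and 545 in the knockout. The aspartate/glutamate carriers of the malate-aspartate shuttle were lower in ATM KO 3 and higher in vector control 1 than elsewhere. Slc25a13 (citrin) stood at 3379, 2624 and 2559 in control and 2436, 2702 and 2118 in the knockout. Slc25a12 (aralar) was at 2052, 1023 and 1009.7 in control and 1129, 1271 and 729 in the knockout. Slc25a20, the carnitine/acylcarnitine carrier that admits fatty acids for oxidation, stood at 476, 318 and 334 in control and 455, 540.1 and 361 in the knockout, a log2 difference of 0.27 (SE 0.26), with vector control 1 above ATM KO 1 and 3.

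Several amino acid carriers were highest in vector control 1 and ATM KO 2, with ATM KO 1 next and the other 3 libraries lowest. Slc25a22, which imports glutamate with a proton, stood at 820.3, 225 and 175 in control and 548, 971 and 252 in the knockout, a log2 difference of 0.68 (SE 0.72) with a 95% interval of -1.06 to 2.42. Slc25a15, the ornithine carrier of the urea cycle, was at 2118, 553 and 623 in control and 786, 1171 and 582 in the knockout. Slc25a44, which imports branched-chain amino acids, was at 1102, 386 and 369 in control and 546, 803 and 415 in the knockout. In Slc25a22 and Slc25a44 vector controls 2 and 3 were the lowest libraries, and in Slc25a15 ATM KO 3 lay between them. Slc25a38, the glycine carrier needed for heme synthesis, ranged 2.16-fold, and Slc25a29, a carrier of basic amino acids, 2.44-fold. Slc25a47 stood at 68.1, 25.2 and 27.3 in control and 45.3, 39.3 and 64.0 in the knockout, and the glutamate carrier Slc25a18, at 8.76, 0.967 and 1.05 in control and 10.3, 3.18 and 11.5 in the knockout, was not tested. Slc25a45 had the opposite pattern, at 91.5, 329 and 358 in control and 309, 151 and 474 in the knockout, and was the 1 tested member at least 2-fold lower in vector control 1 than the mean of vector controls 2 and 3 (16.2% of all genes were).

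Among nucleotide and cofactor carriers, the widest ranges of all tested members were found beside some of the narrowest. Slc25a32, the folate and FAD carrier, stood at 2363, 372 and 394 in control and 882, 1647 and 448 in the knockout, a 6.34-fold range. Slc25a33, a pyrimidine nucleotide carrier needed for mitochondrial DNA and RNA synthesis, was at 1154, 201 and 186 in control and 422, 714 and 218 in the knockout, a 6.21-fold range. Both were highest in vector control 1, then in ATM KO 2 and then in ATM KO 1. Its paralog Slc25a36, also a pyrimidine nucleotide carrier, had nearly the reverse order, at 975, 1509 and 1492 in control and 1531, 1468 and 2187 in the knockout, with a log2 difference of 0.39 (SE 0.26). Slc25a17, a peroxisomal carrier of cofactors and nucleotides, ranged only 1.21-fold, at 1889, 1778 and 1790.3 in control and 1724, 1555 and 1809.6 in the knockout, and had a log2 difference of -0.10 (SE 0.14). Slc25a51, the mitochondrial NAD+ carrier and per kb 515, was at 2919, 2626 and 2624 in control and 2752, 2560.5 and 3559 in the knockout, highest in ATM KO 3. Slc25a26 (S-adenosylmethionine) and Slc25a16 were both highest in vector control 1, with ranges of 1.95-fold and 2.53-fold.

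The upstream sequences of Slc25a33 and Slc25a22, the carriers with the widest ranges that the RefSeq table holds, are set beside that of Timm10, an import gene that is likewise high in vector control 1 and ATM KO 2, to set their letters side by side. The windows are chr4:149774268-149774517 (minus strand), chr7:141437875-141438124 (minus strand) and chr2:84826771-84827020 (plus strand); capitals mark the E-box.
Slc25a33: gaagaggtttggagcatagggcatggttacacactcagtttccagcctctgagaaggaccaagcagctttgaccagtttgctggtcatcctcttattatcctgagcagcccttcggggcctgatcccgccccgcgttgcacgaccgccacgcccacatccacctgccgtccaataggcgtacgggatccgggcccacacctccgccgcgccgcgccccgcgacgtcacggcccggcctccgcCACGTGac
Slc25a22: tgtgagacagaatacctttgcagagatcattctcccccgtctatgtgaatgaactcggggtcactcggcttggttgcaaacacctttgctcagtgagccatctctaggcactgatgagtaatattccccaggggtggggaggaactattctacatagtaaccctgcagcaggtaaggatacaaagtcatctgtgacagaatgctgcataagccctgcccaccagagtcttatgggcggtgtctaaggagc
Timm10: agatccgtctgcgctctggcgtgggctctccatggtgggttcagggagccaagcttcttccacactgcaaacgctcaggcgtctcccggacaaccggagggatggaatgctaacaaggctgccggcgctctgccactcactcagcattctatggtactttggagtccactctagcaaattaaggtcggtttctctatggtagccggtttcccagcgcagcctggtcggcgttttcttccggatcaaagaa

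Slc25a33 has an E-box that begins 8 bases before its RefSeq start, inside the GENCODE M21 gene model, which starts further upstream at 149774277 on the minus strand. In these windows Slc25a22 and Timm10 have none of the 3 motifs. Of the 19 members with a promoter entry that were at least 2-fold higher in vector control 1 than the mean of vector controls 2 and 3, 3 hold an E-box (15.8%), beside 5 of the other 29 tested members with an entry (17.2%).

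The iron carriers of the inner membrane, mitoferrin 1 (Slc25a37) and mitoferrin 2 (Slc25a28), feed heme and iron-sulfur cluster synthesis. Slc25a37 was the more abundant per kb (590.0 against 116) and steady, at 3129, 3791 and 3696 in control and 3427, 3506 and 3765 in the knockout. Slc25a28 stood at 596, 426 and 462 in control and 432, 413 and 280.3 in the knockout, a log2 difference of -0.41 (SE 0.26); ATM KO 3 was the lowest and ATM KO 1 lay above vector control 2.

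Of the 3 uncoupling protein relatives, 2 had positive and 1 a negative difference. Slc25a30 (KMCP1) stood at 2201, 2914 and 2870.4 in control and 2411, 1624 and 1742 in the knockout, a log2 difference of -0.48 (SE 0.21), with ATM KO 1 above vector control 1. Slc25a14 (BMCP1) stood at 334, 282 and 251 in control and 448, 323 and 495 in the knockout, a log2 difference of 0.53 (SE 0.25), with ATM KO 2 below vector control 1. In both the overlap was between vector control 1 and that 1 knockout library, and leaving out either of them removed it. Slc25a27 (UCP4) stood at 148, 111 and 93.5 in control and 154, 112 and 182 in the knockout. Of the other carriers, Slc25a46, an outer membrane protein linked to mitochondrial fission and fusion, was at 2795, 2166 and 2025 in control and 2376, 2554 and 2219 in the knockout, and Slc25a53, of unassigned substrate, at 138, 120.0 and 122 in control and 111, 89.1 and 147 in the knockout.

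**Figure D3:**
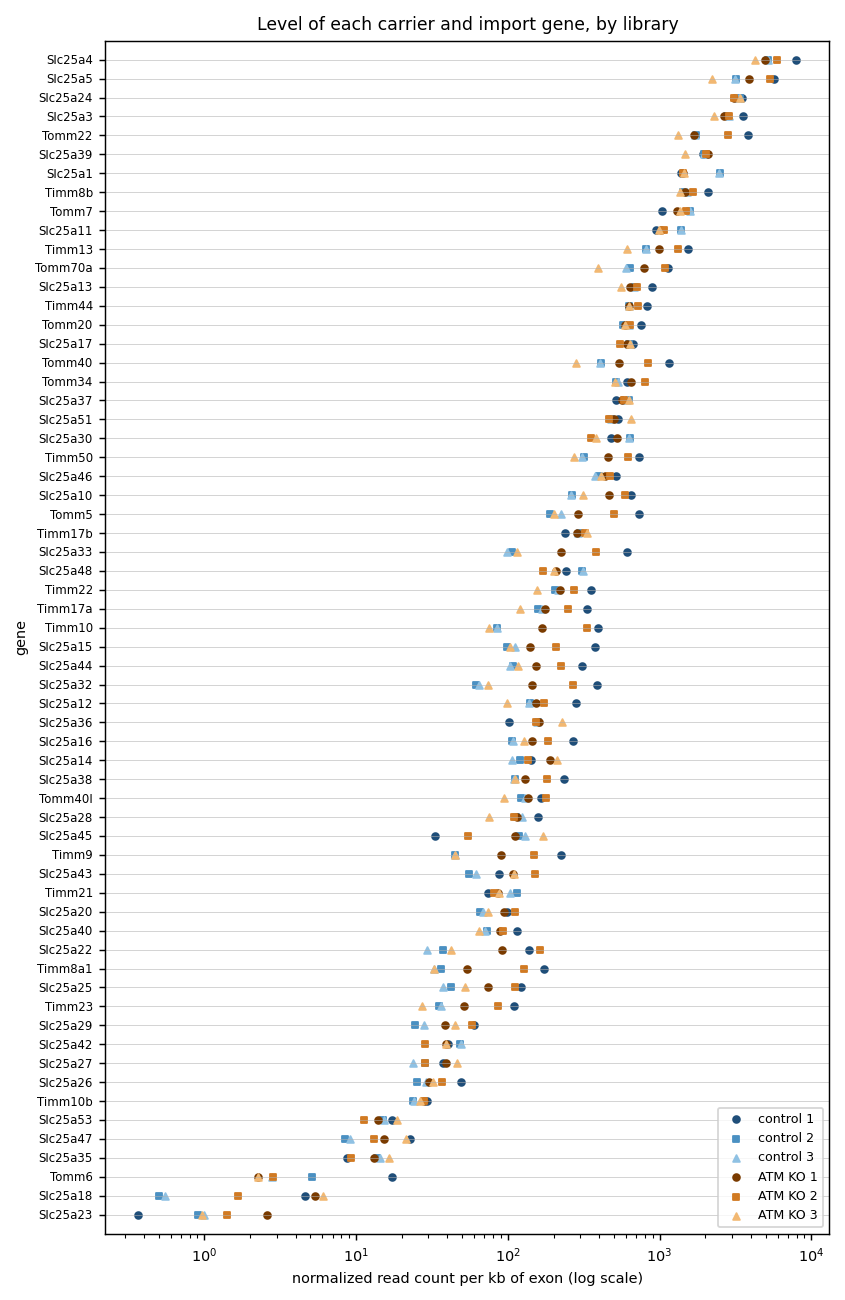
Normalized read count per kb of exon of the listed carriers and import genes, except 1 not reported singly, on a log axis, in each library, ordered by mean level. Slc25a4, Slc25a5 and Slc25a24 are the highest, and Slc25a23, Slc25a18 and Tomm6 the lowest.

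In the role group of the TOM complex and its receptors, which also holds the cytosolic Tomm34, 2 of 8 tested genes (Tomm34 and Tomm7) had positive and 6 negative differences, and the control libraries spread further than the groups differed in all 8. Tomm22, the central receptor, had the highest level per kb (2187) and stood at 6338, 2856 and 2816 in control and 2798, 4667 and 2191 in the knockout. Tomm7, a small subunit that regulates assembly of the complex and has 2 nearly identical pseudogenes, came second (1393) and was the exception in order, at 1173, 1784 and 1772 in control and 1460.4, 1686 and 1524 in the knockout, lowest in vector control 1. Tomm70a, the receptor for carrier precursors (named Tomm70 in newer annotation, 773 per kb), was at 11039, 6217 and 5891 in control and 7766, 10629 and 3827 in the knockout. The pore subunit Tomm40 ranged 4.10-fold, at 5191, 1853 and 1822 in control and 2449, 3799 and 1267 in the knockout.

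Tomm20, the presequence receptor, varied far less (1.33-fold), at 3715, 2802 and 3091 in control and 2881, 3149 and 2924 in the knockout; 4 nearly identical pseudogenes make its count uncertain. Tomm34, a cytosolic cochaperone of import, stood at 1864, 1576 and 1608 in control and 1975, 2419 and 1541 in the knockout, a log2 difference of 0.21 (SE 0.21), with ATM KO 3 as the lowest library. The small subunit Tomm5 was at 635, 165 and 195 in control and 253, 432 and 174 in the knockout. The small subunit Tomm6 was not tested: its values were 19.5, 5.80 and 3.15 in control and 2.57, 3.18 and 2.56 in the knockout, and 84.2% of its exon length overlaps other genes. Tomm40l, a paralog of the pore subunit, was at 849, 632 and 668 in control and 702, 919 and 485 in the knockout, but 64.3% of its exon length overlaps Nr1i3 on the other strand, and whether counting used strand is not stated.

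The TIM23 complex and its motor had 6 tested members, 2 positive and 4 negative. Timm44, which tethers the import motor to the channel, was the highest per kb (676) and steady, at 3018, 2305 and 2315 in control and 2296, 2623 and 2298 in the knockout. Timm50, the receptor that takes over presequences from TOM (452 per kb), was at 1979, 850.3 and 829 in control and 1221, 1659.6 and 732 in the knockout. Timm23, the channel subunit, was at 198, 62.9 and 65.1 in control and 92.4, 153 and 48.6 in the knockout, but 5 near-identical copies, 4 of them pseudogenes, could take its reads. Both Timm50 and Timm23 were highest in vector control 1, then ATM KO 2, then ATM KO 1. The 2 versions of the channel's partner differed: Timm17a was at 2605, 1239 and 1326 in control and 1379, 1966 and 946 in the knockout. Timm17b was at 612, 761 and 745 in control and 728, 823 and 848 in the knockout, lowest in vector control 1, with a log2 difference of 0.18 (SE 0.18). Timm21, which links TIM23 to TOM and to respiratory chain complexes, was at 274, 426 and 383 in control and 322, 303 and 325 in the knockout, also lowest in vector control 1.

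Timm22, the channel of the TIM22 complex and its only tested member here, stood at 1127, 652 and 679.8 in control and 699, 874 and 499 in the knockout. The small TIM chaperones of the intermembrane space were the role group with the widest gap between control libraries, and all 6 were highest in vector control 1. Timm9 and Timm10 form the hexamer that shields carrier precursors. Timm9 stood at 960.4, 193 and 192 in control and 387, 632 and 192 in the knockout. Timm10 stood at 319, 68.7 and 69.3 in control and 138, 273 and 61.4 in the knockout. Their orders of libraries were the same down to ATM KO 1, with vector controls 2 and 3 and ATM KO 3 close together at the bottom. Timm8a1, the mouse counterpart of the deafness-dystonia gene, was at 247, 51.3 and 46.2 in control and 77.0, 180.4 and 46.1 in the knockout, and its partner Timm13 (1015 per kb) at 2109.6, 1123 and 1111 in control and 1351, 1813 and 842 in the knockout. Timm8b, the highest per kb (1590.2), was flatter, at 1088, 744 and 782 in control and 761, 865 and 703 in the knockout. Timm10b, which docks the chaperones on TIM22, was nearly level at 105, 85.1 and 86.2 in control and 101, 99.7 and 94.7 in the knockout. However, 22.1% of its exon length overlaps other genes, and 1 of these, Gm45799, shares at least 50% of its coding sequence.

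Many members shared an order of libraries that cut across the groups. That order was chosen after the values were seen, so its shares below are a description. Vector control 1 was the highest library in 38 of 60 members (63.3%), where it was so in 31.9% of all tested genes, and in 16 of 21 import genes. In 24 members (40%; 15.4% of all genes) the order was vector control 1, then ATM KO 2, then ATM KO 1, with the other 3 libraries below, and in 3 members, Timm21, Slc25a45 and Slc25a35, the reverse (12.7% of all genes). Vector control 1 was at least 2-fold the mean of vector controls 2 and 3 in 21 members (35%; 12.8% of all genes). As median deviations from each gene's mean on the log2 scale, the control libraries of the import genes had 0.64, -0.20 and -0.17 and the knockout libraries -0.04, 0.42 and -0.62. For the small TIM chaperones they had 1.02, -0.48 and -0.54 and then 0.06, 0.66 and -0.75. All tested genes stood between -0.01 and 0.02 in every library. The authors' library factor can bring such a median near 0 by itself, so it serves only as the reference of the scale. In 52 members (86.7%; 83.4% of all genes), and in all 21 import genes, the range within the controls was larger than the difference between the groups. Vector control 1 was the lowest library in 9 members (15%) and in 31.3% of all genes. Of the 7 epithelial markers listed, 5 were lowest in vector control 1, but 1, Epcam, had the full reverse order; Cdh1 was nearly level, and Krt7 was higher in vector control 1 than in vector controls 2 and 3. Their part in the result was not tested.

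**Figure D4:**
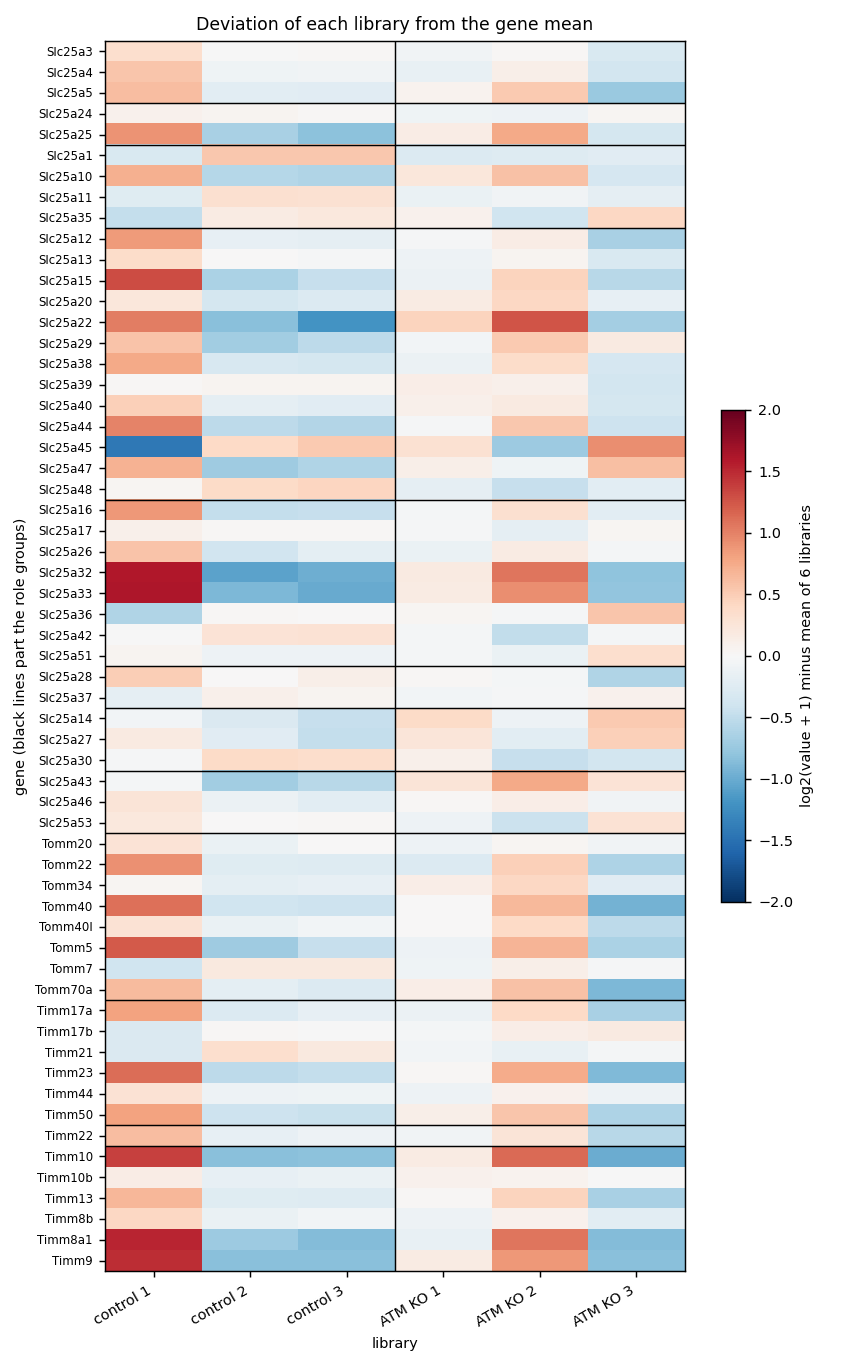
Deviation of the tested members, except 1 not reported singly, from their means over the 6 libraries on the log2(value + 1) scale, genes in rows and libraries in columns. Most import genes are high in vector control 1 and ATM KO 2 and low in ATM KO 3.

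The data set wide limits on what a group difference could be. For 29 of 60 members (48.3%; 55.1% of all genes) the 95% interval of the difference lay within a 2-fold change either way, and for the others a 2-fold change in at least 1 direction lay inside it.

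Ratios of the read counts of 10 paralog pairs, without regard to gene length, were taken within each library, where the library's scaling factor cancels. No pair passed a test between the groups: in all 10 they overlapped, and the exact permutation test (2-sided) gave p between 0.5 and 1, all 1 after Benjamini-Hochberg adjustment over the 10 pairs, where 3 against 3 libraries cannot go below 0.1. The ratio of Slc25a33 to Slc25a36, the pyrimidine nucleotide carriers, spread the most, at 1.18, 0.133 and 0.125 in control and 0.275, 0.487 and 0.0995 in the knockout, an 11.8-fold range. Per kb of exon this ratio was 6.02, 0.678 and 0.634 in control and 1.40, 2.47 and 0.506 in the knockout, so Slc25a33 stood above Slc25a36 in vector control 1, ATM KO 1 and ATM KO 2 and below it in the other 3 libraries. The ratio of Timm10b to Timm10 was 0.329, 1.24 and 1.24 in control and 0.733, 0.366 and 1.54 in the knockout, and that of Timm17a to Timm17b was 4.26, 1.63 and 1.78 in control and 1.89, 2.39 and 1.11 in the knockout. The ratio of the ADP/ATP carriers Slc25a4 and Slc25a5 was 2.01, 2.31 and 2.35 in control and 1.82, 1.59 and 2.73 in the knockout, with the knockout libraries at both ends of the range. The mitoferrin ratio of Slc25a37 to Slc25a28 was 5.25, 8.91 and 7.995 in control and 7.93, 8.49 and 13.4 in the knockout.

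The ratio of Timm8a1 to Timm8b was 0.227, 0.0689 and 0.0591 in control and 0.101, 0.209 and 0.0656 in the knockout, and that of Tomm40l to Tomm40 was 0.163, 0.341 and 0.367 in control and 0.286, 0.242 and 0.383 in the knockout. Slc25a25 to Slc25a24 stood at 0.0808, 0.0283 and 0.0258 in control and 0.0544, 0.0836 and 0.0353 in the knockout. The ratio of the glutathione carriers Slc25a39 and Slc25a40 was 5.55, 8.80 and 9.12 in control and 7.74, 7.16 and 7.48 in the knockout. Only vector control 1 stood apart from the other libraries of its group. That of the aspartate/glutamate carriers Slc25a12 and Slc25a13 was 0.607, 0.390 and 0.395 in control and 0.464, 0.470 and 0.344 in the knockout. Vector controls 2 and 3 differed by at most 1.16-fold in any pair. Slc25a36, Slc25a40, Timm17a and Timm8a1 each have 1 near-identical pseudogene, and Slc25a5 has 2. Other genes overlap 14.9% of the exon length of Slc25a33, 15.6% of that of Timm8b, 22.1% of that of Timm10b and 64.3% of that of Tomm40l. The ratios with these genes are uncertain to that extent. The sign of the difference between the groups turned in 8 of 10 pairs when some 1 library was left out, and in 4 without vector control 1.

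**Figure D5:**
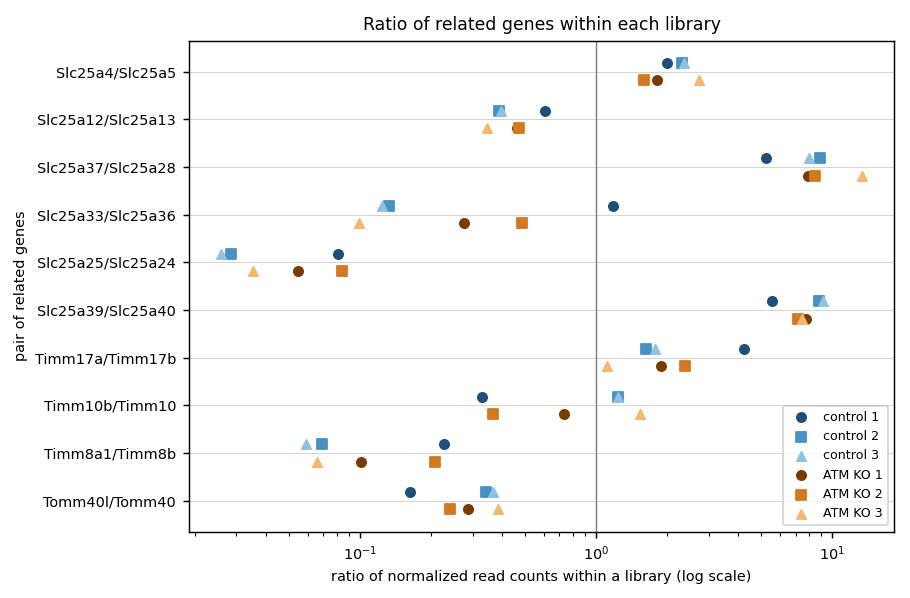
Ratio of normalized read counts within each library for 10 paralog pairs, on a log axis. The widest spread is that of Slc25a33 to Slc25a36, from 0.0995 in ATM KO 3 to 1.18 in vector control 1, and in every pair the groups overlap.

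Other genes of the same routes, listed by function, did not pass either. Of 27 other import, sorting and processing genes 26 were tested, 0 were called by limma, edgeR or DESeq2, and 8 had positive and 18 negative differences, with a median of -0.11 that became 0.05 without vector control 1. The members with the highest mean read counts, which take no account of gene length, were named: Hspa9, the matrix chaperone that drives the import motor, at 32975, 22295 and 22732 in control and 21910.0, 25017 and 14450.0 in the knockout, and Hspd1, the matrix chaperonin, at 18903, 9987 and 10224 in control and 10059, 13957 and 5768 in the knockout. Mtch1, an outer membrane relative of the carriers, was at 2982, 5060.3 and 5157 in control and 5422, 4111 and 6509 in the knockout, with vector control 1 the lowest. At an unadjusted p under 0.05 there was 1 of these genes by limma, 1 by edgeR and 1 by DESeq2. The groups did not overlap for 1 of the 26 tested genes, lower in the knockout (3.85%, beside 5.48% of all tested genes).

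Of 26 other mitochondrial membrane transporters and channels 22 were listed, all of them tested, and 0 were called by any of these tools; 8 had positive and 14 negative differences, with a median of -0.11, or 0.08 without vector control 1. At an unadjusted p under 0.05 there were 0 by limma, 0 by edgeR and 0 by DESeq2. Named by mean read count, again without regard to length, the outer membrane channel Vdac1 was at 11972, 15626 and 15602 in control and 12209, 12374 and 9423 in the knockout. The inner membrane protein Ghitm was at 9640.1, 7952 and 7908 in control and 7142, 7265 and 6502 in the knockout, and the outer membrane channel Vdac2 at 7368, 5947 and 6111 in control and 5152, 6099 and 5346 in the knockout. In Vdac1, vector controls 2 and 3 were the highest libraries. Ghitm was the 1 gene of this list whose groups did not overlap, with all knockout libraries below all controls (4.55%, beside 5.48% of all tested genes).

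The mitochondrial ribosomal proteins (Mrpl and Mrps symbols), whose cytosol-made subunits are imported by the same machinery, were compared along the same order of libraries. That order had been chosen after the values were seen. Vector control 1 was the highest library in 54 of their 75 tested genes (72%), and the order vector control 1, ATM KO 2, ATM KO 1 and then the other 3 was seen in 35 (46.7%). Their median log2 difference was -0.17, or 0.04 without vector control 1. Whether these shares differ from those of the carriers and import genes was not tested.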

How the data were processed

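RNA was measured by RNA-seq in 6 libraries of 4T1 cells, 3 per group; sample titles gave the groups. DESeq2, HTSeq, SAMtools, STAR, cutadapt and Trim Galore are named in the submitters' processing notes, as are the builds GRCm38 and mm9, with no version or role. Each deposited table gives a normalized signal: read counts of genes after the authors divided them by a library factor. The values themselves show it, since 100% are whole multiples of the library's step within 0.01 reads. The rule that kept the 13405 listed genes, and the use of strand in counting, are not given in the sources used here.

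Values were compared as log2(value + 1) over the 12149 genes with a mean of at least 10, with limma 3.58.1 in R 4.3.3 (mean-variance trend, 2-sided, Benjamini-Hochberg over all tested genes, threshold 0.05). Alternatives were DESeq2 1.42.0 and edgeR 4.0.16 (quasi-likelihood) on the recovered reads, other pseudocounts, filters and scalings, a replicate block and each library left out. The fits were also run on simulated counts, where only the sign of the called changes was required to be right. Coordinates and exon lengths come from GENCODE M21 on GRCm38, which held 98.8% of the listed IDs and all 63 members. A near-identical copy is another transcribed gene with at least 95% identity over at least 50% of the coding sequence. The search gave 1 or more such genes for 11 members. For Timm10b, Tomm40l and Tomm6 these genes overlap the member itself, so they share its DNA and are not separate copies. Promoter windows whose own gene model begins over 30 bases earlier were not printed. Paralog ratios were compared by exact permutation over libraries.

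The members and gene lists were chosen with earlier results of these data known. 1 member enters the counts and medians but its own values are not reported here. Every other member may be named; values in every library are given for members called by a tool, those whose groups do not overlap, paralog pairs and the highest per kb in each role group, and for further members chosen after their values were seen (wide or narrow ranges, or an order of libraries unlike the rest); of other genes for Atm and the highest of each list.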

Additional observations from a re-analysis of the deposited data

How the results depend on the processing

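With all 6 libraries, limma's 0 calls among the members and over all genes stayed 0 under other pseudocounts, filters and scalings and under edgeR; DESeq2 called 84 genes and 0 members, and without vector control 1, a choice made after the data were seen, 544 genes and 3 members. The number of members with all knockout libraries above all controls ranged from 1 to 16 when 1 library was left out, and the number with all below from 3 to 7. The 16 came without vector control 1 and the 7 without vector control 1 or ATM KO 2. Over all tested genes the shares without vector control 1 were 19.6% above and 21.8% below. The share of the members was larger above and smaller below. With upper quartile factors 1 member stood below. Of the 60 tested members, 34 turned sign when some 1 library was left out. The 17 given with log2 differences are all from the others, so that their signs held with each library left out follows from that choice. Their signs also held under the remaining settings. Of their 289 alternative values, 286 stayed on the same side of the threshold, which no member passed with all 6 libraries. The cause of the other changes was not tested. Deviations of same-numbered libraries from their group means had no common direction, with correlations of -0.02, -0.58 and 0.53. With so few libraries per group these values cannot settle whether the numbers pair the samples. With the replicate number as a block, limma called 0 genes and 0 members, with 296 genes at an unadjusted p under 0.05 in place of 505, and vector control 1 correlated best with ATM KO 2, not with its own number. Slc25a23, Slc25a18 and Tomm6 had too few reads to be tested.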
